A study of Mus musculus with 47 samples.

Results

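The vacuolar proton pump (V-ATPase) was followed through 10 of its subunit genes in cultured mouse microglia, which were taken by gene name from a table of 53697 genes. They were the V1 subunits Atp6v1a, Atp6v1b2, Atp6v1c1 and Atp6v1h and the V0 subunits Atp6v0a1, Atp6v0b, Atp6v0c, Atp6v0d1, Atp6v0d2 and Atp6v0e. All 10 passed the filter on low values and were tested in each of 21 comparisons. The names were chosen without a threshold on any measured value.

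Polyadenylated RNA of primary forebrain microglia was sequenced in 47 libraries, to ask how APOE genotype alters the cells at rest and after they take up myelin. In myelin groups the cells received myelin for 3 hours and were collected at 24 hours, and in untreated groups they received none over the 24 hours. The E4 and E3 cells came from mice in which both Apoe alleles were humanized to encode APOE4 (5 libraries per treatment) or APOE3 (4 per treatment). KO cells carried no intact Apoe allele (5 per treatment), Het cells had 1 disrupted allele (4 with myelin and 5 without), and WT cells carried mouse Apoe (5 per treatment). All mice were C57BL/6, and all cells were grown in the same serum-containing medium. E4 and E3 mice came from Taconic, and KO, Het and WT mice from the Jackson Laboratory, so that genotype and supplier cannot be told apart where E4 or E3 is set against WT. Whether replicate libraries stem from different animals is not given in the labels, and the spread that the p-values rest on may therefore be technical.

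The pump is a rotary machine that hydrolyses ATP in its cytosolic V1 sector and moves protons through its membrane-bound V0 sector. In microglia and other phagocytes it acidifies phagosomes and lysosomes, where hydrolases need low pH to degrade engulfed material such as myelin. Many of its genes, with other lysosomal genes, are known targets of the transcription factors TFEB and TFE3, which bind E-box-like promoter sites.

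Levels are given in scaled TPM, the authors' deposited TPM rescaled so that the nuclear protein-coding genes of a library sum to 1000000. Over the 43 libraries used for tests, Atp6v0c had the highest median of the 10 genes, at 1921 scaled TPM, and Atp6v0d2 the lowest, at 24.7. Atp6v0b, at 1062, and Atp6v0e, at 783, came next to the top, and the other subunits had medians from 101 for Atp6v1h to 276 for Atp6v1b2. TPM are per transcript length, so these levels can be set beside each other. The test was limma on log2(scaled TPM + 1) over 10720 genes, and a gene was called at a Benjamini-Hochberg adjusted p under 0.05. Log2 fold changes are on that scale and are given ± SE.

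The nuclear coding genes held a small and uneven share of each library, since the non-coding gene Gm23935 took 69.4% to 99.0% of the deposited TPM. The coding share was 16% to 24.3% in E4 myelin and 7.16% to 16.1% in E4 untreated libraries. In the other genotypes it was 10.1% to 23.7% in E3 myelin, 11.1% to 16.6% in E3 untreated, 21.7% to 25.9% in KO myelin, 16.4% to 24.9% in KO untreated, 13% to 24.8% in WT myelin and 20.5% to 27.3% in WT untreated libraries. In 4 Het libraries (myelin replicates 1 and 2, untreated replicates 3 and 5) it was under 6%, and they were left out of the tests. Mouse Apoe read 66.1 to 85.4 scaled TPM in KO myelin and 67.3 to 86.4 in KO untreated libraries, against 59262 to 82326 in WT myelin and 46678 to 63640.0 in WT untreated libraries, so the KO labels held. It read 312 to 745 in E4 myelin and 138 to 236 in E4 untreated, 104 to 260.1 in E3 myelin and 92.2 to 114 in E3 untreated libraries, where reads of a human APOE transcript need not be assigned to the mouse gene. In Het libraries it read 14764 to 50531 with myelin and 12909 to 59526 untreated. Summed microglia markers, 10 of 10 measured, lay between 9269 and 16689 scaled TPM in every tested library. Summed astrocyte markers, 10 of 10 measured, were 1396 to 3047 in E4 myelin, 1879 to 3464 in E4 untreated, 889.6 to 1075 in E3 myelin and 986 to 1237 in E3 untreated libraries, against 123 to 147 in WT myelin and 132 to 161 in WT untreated libraries. In bulk RNA, fewer cells of a type and less RNA per cell cannot be told apart.

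Atp6v0d2 (chr4:19876841-19922605, minus strand), the alternative form of the d subunit that joins the central stalk to the membrane ring, varied most of the 10. Positions here and below are those of the GENCODE vM21 genes on mm10. Mouse osteoclasts and macrophages are known for this form. In E4 myelin libraries it had 17.2, 20.3, 19.2, 17.1 and 15.8 scaled TPM, against 5.11, 5.9, 6.25, 7.13 and 8.07 in E4 untreated libraries. The E3 myelin libraries had 11.1, 12.5, 15.6 and 11.5, against 5.85, 4.99, 7.56 and 6.38 in E3 untreated libraries. In both genotypes every myelin library lay above every untreated one. KO myelin libraries had 39.7, 42.9, 43, 42.1 and 53.3, against 41, 37.9, 38.8, 41.1 and 27.5 in KO untreated libraries. WT myelin libraries had 18.2, 27.6, 21, 31.1 and 24.3, against 25.4, 25.6, 28.2, 24.7 and 29.4 in WT untreated libraries. These 2 pairs of groups overlapped. Het myelin libraries had 37 and 57.1, against 39.2, 48.8 and 35.8 in Het untreated libraries, and the 4 left-out libraries had 58.9 and 34.2 with myelin and 19.4 and 11 without. By mean level the order from the top was Het myelin (47.1 ± 14.2 scaled TPM, SD), KO myelin (44.2 ± 5.25), Het untreated (41.3 ± 6.77), KO untreated (37.2 ± 5.64), WT untreated (26.6 ± 2.04), WT myelin (24.4 ± 5.1), E4 myelin (17.9 ± 1.81), E3 myelin (12.7 ± 2.02), E4 untreated (6.49 ± 1.14) and E3 untreated (6.19 ± 1.08). Neighbours in this order overlapped, except that E4 myelin lay above E3 myelin and E3 myelin above E4 untreated libraries.

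**Figure D1:**
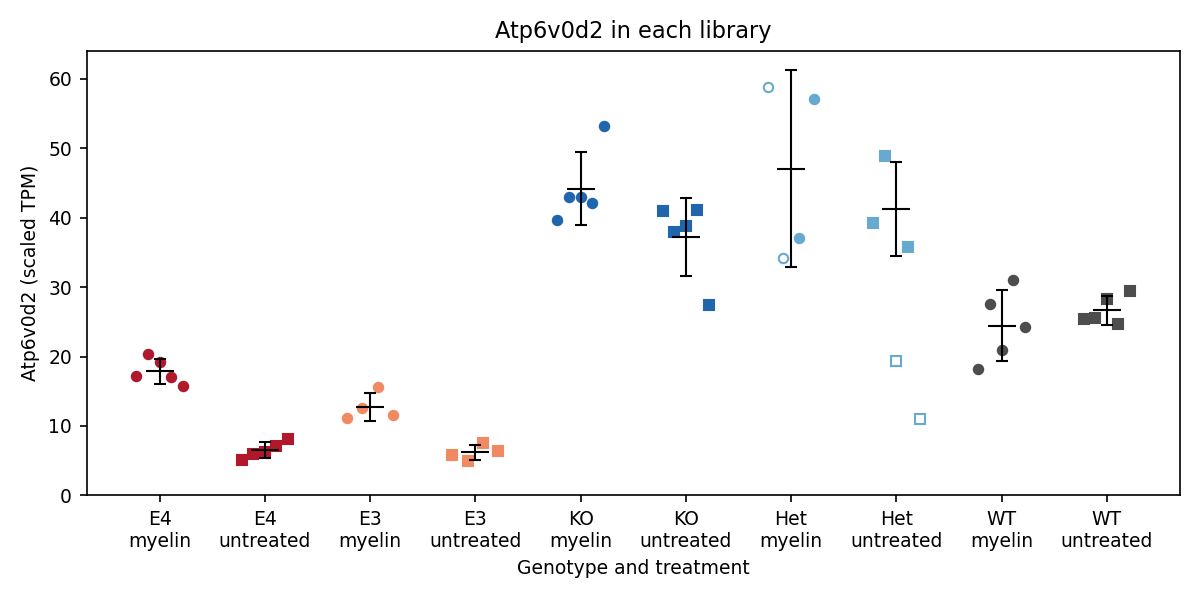
Atp6v0d2 in scaled TPM (vertical axis) in each library of the 10 groups (horizontal axis). Circles are myelin and squares untreated libraries, open symbols are the 4 Het libraries left out of the tests, and the black lines are the mean ± SD of the tested ones. E4 untreated libraries sit at 5.11 to 8.07 and E3 untreated libraries at 4.99 to 7.56, below all libraries of the other groups.

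In E4 cells 8 of the 10 subunits rose with myelin and none fell, in a comparison where 6.65% of all tested genes were called higher. Their median log2 fold change was 0.35, against 0.01 over all tested genes. Atp6v0d2 changed most, by 1.34 ± 0.13 (adjusted p = 4.03e-09), or 2.76 times in mean level.

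Of the V1 subunits in E4 cells, 3 of 4 rose. Atp6v1a (chr16:44085402-44139705) encodes the A subunit that binds and hydrolyses ATP. It had 210.1, 194, 230.3, 267 and 214 scaled TPM in E4 myelin libraries, against 103, 145, 148, 179 and 164 in E4 untreated libraries, a change of 0.61 ± 0.14 (adjusted p = 0.00277). Atp6v1b2 (chr8:69088646-69113711) encodes the B subunit, which alternates with A in the catalytic ring. It had 263, 263, 277, 321 and 276 in E4 myelin libraries, against 151, 219, 205, 229 and 216 in E4 untreated libraries, a change of 0.47 ± 0.10 (adjusted p = 0.00143). For Atp6v1c1 (chr15:38661933-38692446), the C subunit that holds the sectors together and lets go when the pump comes apart, the values were 147, 146, 157, 192 and 151 in E4 myelin libraries, against 80.6, 113, 107, 126 and 127 in E4 untreated libraries, a change of 0.53 ± 0.12 (adjusted p = 0.00421). For each of the 3 the lowest E4 myelin library was above the highest E4 untreated one. Atp6v1h (chr1:5070018-5162529), the H subunit that keeps free V1 from hydrolysing ATP, overlapped between 94.2 to 124 in E4 myelin and 72.4 to 110.3 in E4 untreated libraries and was not called (0.23 ± 0.12, adjusted p = 0.197).

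Of the V0 subunits in E4 cells, 5 of 6 rose. Atp6v0d1 (chr8:105524465-105566047), the common d subunit, had 225, 239.5, 239.7, 228 and 234 scaled TPM in E4 myelin libraries, against 174, 176, 181, 193 and 196 in E4 untreated libraries, a change of 0.34 ± 0.06 (adjusted p = 0.000139). Atp6v0c (chr17:24163866-24169702), which encodes the c subunit that makes up most of the proton-carrying ring, had 2033, 1946, 2009.7, 1892 and 1995 in E4 myelin libraries, against 1497, 1644, 1686, 1567 and 1755 in E4 untreated libraries, a change of 0.28 ± 0.05 (adjusted p = 0.000468). Neither gene's E4 groups overlapped. Atp6v0a1 (chr11:101009452-101063719), the a subunit that forms the proton half-channels, had 112, 115, 121, 130.5 and 118 in E4 myelin libraries, against 67.9, 93.4, 106, 104 and 99 in E4 untreated libraries (0.35 ± 0.11, adjusted p = 0.0307). Atp6v0e (chr17:26663231-26699647), the small e subunit, ranged over 826 to 885 in E4 myelin and 696 to 783 in E4 untreated libraries (0.20 ± 0.05, adjusted p = 0.00661). Atp6v0b (chr4:117884326-117887333), the second type of ring subunit, overlapped at 994 to 1107 and 988 to 1082 in the same groups and was not called (0.02 ± 0.05, adjusted p = 0.809). Atp6v0a1 was not called without any one of 4 libraries (E4 untreated replicate 1 or 2, E4 myelin replicate 3 or 4).

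Promoter windows of 6 of the 10 genes (Atp6v0a1, Atp6v0b, Atp6v0c, Atp6v0d1, Atp6v0e and Atp6v1a, 8 windows of 300 bases) were found among the RefSeq promoters of GRCm38.p6. They are shown because E-box-like sites are known at pump genes. The letters CACGTG, which read the same on both strands, were in 4 of the 8 windows, against 7.15% of all 32851 promoter windows. These were windows of 4 of the 6 genes (Atp6v0b, Atp6v0d1, Atp6v0e and Atp6v1a). The longer TCACGTGA, which contains CACGTG, was in 3 of the 8 windows (Atp6v0d1, Atp6v0e and Atp6v1a), against 0.974% of all windows. CATGTG on either strand was in 1 of the 8 (Atp6v0c), against 14.2%. A match is a description, not a binding site. The stretch from 80 bases before to 20 bases after the annotated start is printed 5′ to 3′ for 3 of the genes, with CACGTG in capitals. That of Atp6v0e lies inside the gene model given above. The first comes from chr4:117887310-117887409, minus strand, the second from chr8:105566045-105566144, minus strand, and the third from chr17:26676316-26676415, plus strand.
Atp6v0b: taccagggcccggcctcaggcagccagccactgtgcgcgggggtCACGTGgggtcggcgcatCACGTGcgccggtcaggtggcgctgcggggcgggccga
Atp6v0d1: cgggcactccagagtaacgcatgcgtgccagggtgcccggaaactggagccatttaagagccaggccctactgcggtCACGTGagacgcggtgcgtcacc
Atp6v0e: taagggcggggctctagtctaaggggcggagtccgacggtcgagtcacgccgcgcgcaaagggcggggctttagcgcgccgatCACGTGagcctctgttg
The gene with 2 copies, Atp6v0b, was not called with myelin in E4 cells, while Atp6v0d1 and Atp6v0e were. Atp6v1a, whose copy lies 131 to 126 bases before the RefSeq start of its window, was called as well. That window too lies inside the gene model given above.

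The coding share of 3 of the 5 E4 myelin libraries was above that of every E4 untreated library, and V1 subunits moved with it inside groups too. Across the 43 libraries, after subtracting group means, Pearson's r of the log2 level with the coding share in percent was 0.87 for Atp6v1a, 0.86 for Atp6v1b2, 0.83 for Atp6v1c1, 0.79 for Atp6v1h and 0.72 for Atp6v0a1. It was 0.50 for Atp6v0d2, 0.30 for Atp6v0d1, 0.17 for Atp6v0e, -0.02 for Atp6v0c and -0.61 for Atp6v0b. These are descriptions, and libraries of a group share their treatment and handling. With the coding share as a covariate, an alternative chosen after seeing the data, 5 subunits remained called in E4 cells, namely Atp6v0d2 (1.10), Atp6v0d1 (0.28), Atp6v0c (0.27), Atp6v1b2 (0.19) and Atp6v0e (0.17). The log2 fold changes were then 0.22 for Atp6v1a, 0.18 for Atp6v1c1 and 0.07 for Atp6v0a1, none of them called. With all 47 libraries and equal weights, 2 subunits were called (Atp6v0d2 and Atp6v1a).

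Markers of cell types were read beside the E4 response, where 6.1% of all tested genes were called lower and 6.65% higher. Microglia marker sums overlapped at 12861 to 14124 scaled TPM in E4 myelin and 13037 to 14881 in E4 untreated libraries, and of single members Tmem119 (-0.68), Aif1 (-0.54) and Cx3cr1 (-0.41) fell. Of the endothelial markers 4 of 8 passed the filter and 3 fell, Pecam1 (-0.95), Esam (-0.69) and Cdh5 (-0.65), with sums of 18.2 to 23.1 scaled TPM in E4 myelin and 22 to 27.6 in E4 untreated libraries. Of the neuron markers 4 of 10 passed the filter and 2 fell, Gap43 (-0.69) and Stmn2 (-0.43), with sums of 77.4 to 91.8 and 108 to 129.6 in the same groups. Of the border macrophage and monocyte markers 2 of 8 passed the filter, and Pf4 fell (-0.49) while Mrc1 was not called (-0.13). The sums of this list were 257 to 308 in E4 myelin and 348 to 517 in E4 untreated libraries, without overlap. No astrocyte, oligodendrocyte or fibroblast marker was called, among them Gfap (-0.01), Clu (-0.37), Cnp (0.04), Mbp (0.10), Acta2 (-0.27) and Col1a1 (-0.32). The part of these changes in the subunit values was not tested.

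In E3 cells 4 subunits rose with myelin and none fell, where 2.91% of all tested genes were called higher. The 4 were Atp6v0d2 (0.93 ± 0.15, adjusted p = 0.000258), Atp6v1a (0.64 ± 0.15, adjusted p = 0.0122), Atp6v1b2 (0.44 ± 0.11, adjusted p = 0.0151) and Atp6v0c (0.25 ± 0.06, adjusted p = 0.0129). Atp6v1a had 177, 196, 273 and 215 scaled TPM in E3 myelin libraries, against 127, 123, 163 and 134 in E3 untreated libraries. Atp6v1b2 had 241, 249.8, 314 and 267 in E3 myelin libraries, against 181, 177, 226 and 203 in E3 untreated libraries, and Atp6v0c had 1983, 1915, 1902 and 1822 in E3 myelin libraries, against 1513, 1707, 1602 and 1609 in E3 untreated libraries. The E3 groups did not overlap for any of the 4 genes, and replicate 3 was the highest of the E3 myelin libraries for Atp6v1a and Atp6v1b2. Atp6v1c1 came close to the threshold (0.44 ± 0.14, adjusted p = 0.0511), with 127 to 198 in E3 myelin and 102 to 136 in E3 untreated libraries. Atp6v0d1 gave 0.03 ± 0.07 (adjusted p = 0.791), with 193, 195, 219 and 203 in E3 myelin libraries, against 194, 195, 197 and 205 in E3 untreated libraries. Marker sums moved too, without overlap, in 4 lists. They were 1427 to 1855 in E3 myelin and 2049 to 2580.2 in E3 untreated libraries for fibroblasts and pericytes, 28.8 to 35.9 and 42.1 to 49 for endothelium, 60.4 to 76.2 and 81.2 to 95 for neurons, and 110.4 to 124 and 89.1 to 103 for oligodendrocytes. The microglia, astrocyte and border macrophage sums overlapped, and the part of the markers in the result was not tested. The count of subunits was 2 without E3 untreated replicate 1 or E3 myelin replicate 3, 5 with the coding share as a covariate, and 0 with all 47 libraries and equal weights.

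No subunit was called by limma with myelin in KO, Het or WT cells. Of all tested genes 1.98% were called in either direction in KO cells, 0.196% in Het cells and 4.81% in WT cells. At an unadjusted p under 0.05 there were 2 subunits in KO cells, Atp6v0b (-0.15 ± 0.05) and Atp6v0e (-0.12 ± 0.05), and 0 in Het and WT cells. Of all 10720 genes 1466 passed that level in KO, 1155 in Het and 1884 in WT cells. Atp6v0d2 gave 0.25 ± 0.13 in KO, 0.17 ± 0.19 in Het and -0.14 ± 0.13 in WT cells. Atp6v1a gave 0.04 ± 0.14 in KO, -0.29 ± 0.20 in Het and -0.24 ± 0.14 in WT cells. In WT cells 8 of the 10 estimates were below 0, with a median of -0.12, against -0.04 over all tested genes, and none passed the test. With library weights over all 47 libraries, 1 subunit was called lower in KO cells (Atp6v0b) and 1 in Het cells (Atp6v1h).

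**Figure D2:**
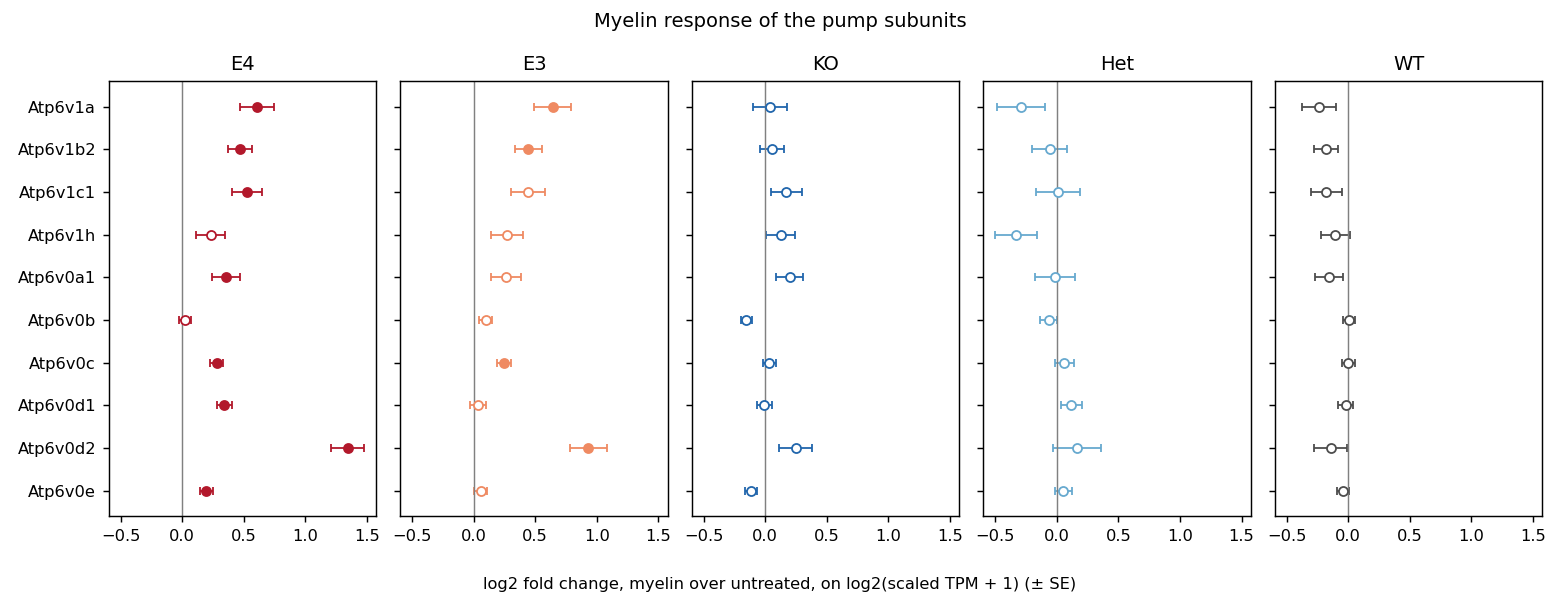
Log2 fold change of each subunit with myelin over untreated (horizontal axis, ± SE) in E4, E3, KO, Het and WT cells, with the subunits from V1 to V0 down the vertical axis. Filled points passed the test, which they did for 8 subunits in E4, 4 in E3 and none in KO, Het or WT cells.

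The difference between responses was tested directly. For E4 minus WT it was positive and called for 7 subunits, where 1.91% of all tested genes were called higher. Atp6v0d2 differed by 1.49 ± 0.19 (adjusted p = 9.54e-06), Atp6v1a by 0.85 ± 0.19 (adjusted p = 0.0116), Atp6v1c1 by 0.70 ± 0.18 and Atp6v1b2 by 0.64 ± 0.14. Atp6v0d1 (0.36 ± 0.08), Atp6v0c (0.28 ± 0.07) and Atp6v0e (0.24 ± 0.07) made up the 7. Atp6v0c was not called without any one of 6 libraries (E4 untreated replicate 1, E4 myelin replicate 1 or 3, WT untreated replicate 3 or 4, WT myelin replicate 1), and Atp6v0e not without any one of 12 from these groups. Neither was called under a trimmed mean scaling. Without E4 untreated replicate 1 or WT myelin replicate 1 there were 4, and with the coding share as a covariate or with all 47 libraries and equal weights Atp6v0d2 alone was called, at 1.14 with the covariate. For E3 minus WT it was called for 3 subunits, Atp6v0d2 (1.07 ± 0.20, adjusted p = 0.00617), Atp6v1a (0.88 ± 0.20) and Atp6v1b2 (0.62 ± 0.15), where 0.989% of all tested genes were called higher. Without any one of 6 libraries (E3 untreated replicate 1 or 2, E3 myelin replicate 3, WT untreated replicate 5, WT myelin replicate 1 or 3) Atp6v0d2 was the only one left. With all 47 libraries and equal weights there was none. The E4 and E3 comparisons share their WT libraries.

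Set against KO cells, the mean response of E4 and E3 cells was greater for 2 subunits, Atp6v0d2 (0.89 ± 0.17, adjusted p = 0.00204) and Atp6v0e (0.25 ± 0.06, adjusted p = 0.0268), where 0.858% of all tested genes were called higher. Atp6v0e lost its call without KO untreated replicate 5, KO myelin replicate 2 or KO myelin replicate 5. The count was 4 or 5 without Het myelin replicate 3 or 4, WT myelin replicate 5 or E4 untreated replicate 5, 6 with the covariate, and 0 with all 47 libraries and equal weights. The trimmed mean scaling ended the call of Atp6v0e. For E4 minus E3 limma called no subunit and 0% of all genes, with 438 genes and 2 subunits at an unadjusted p under 0.05. Those 2 were Atp6v0d1 (0.31 ± 0.09) and Atp6v0d2 (0.41 ± 0.20). For KO minus WT no subunit was called either, where 1.38% of all genes were called in either direction. At an unadjusted p under 0.05 there were 3 subunits, where 2139 of 10720 genes passed. For Het minus WT limma called neither a subunit nor any other gene (0% of genes, 1156 of them at an unadjusted p under 0.05, and 0 subunits).

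E4 and E3 cells were then set against each other directly. Untreated, limma called no subunit, where 16.7% of all tested genes were called in either direction. At an unadjusted p under 0.05 there was no subunit either, where 3164 of 10720 genes passed. The estimates ran from -0.11 for Atp6v0d1 to 0.12 for Atp6v0a1. After myelin 2 subunits were higher in E4 cells, both of them forms of the d subunit, where 6.34% of all tested genes were called higher. Atp6v0d2 differed by 0.47 ± 0.14 (adjusted p = 0.0241), and every E4 myelin library lay above every E3 myelin library. Atp6v0d1 differed by 0.20 ± 0.06 (adjusted p = 0.0292), again with no overlap. Neither call was firm. Under a trimmed mean scaling Atp6v0d1 was not called. Both were lost without E3 myelin replicate 1, 2 or 4 or E4 myelin replicate 2 or 3, Atp6v0d1 also without E4 myelin replicate 5, and both with all 47 libraries and equal weights. With the coding share as a covariate, the untreated comparison called Atp6v0a1 (0.21) and Atp6v1a (0.22) higher in E4 cells. Microglia marker sums were 12861 to 14124 scaled TPM in E4 myelin libraries, against 9477 to 12840.2 in E3 myelin libraries. Astrocyte marker sums, given above, were higher in E4 than in E3 myelin libraries, and fibroblast and pericyte sums were 812 to 1014 in E4 myelin libraries, against 1427 to 1855 in E3 myelin libraries. None of these groups overlapped, and the part of the markers in the result was not tested.

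Against WT cells, untreated E4 and E3 cells had less of most subunits. In E4 cells 6 subunits were lower and 1 was higher, where 31.2% of all tested genes were called lower and 32.5% higher. In E3 cells 6 were lower and 1 was higher, where 25.5% of all tested genes were called lower and 28.9% higher. Atp6v0d2 fell by the most, to a mean of 6.49 scaled TPM in E4 and 6.19 in E3 cells, against 26.6 in WT cells (-1.89 ± 0.13 in E4, adjusted p = 4.22e-15, and -1.95 ± 0.14 in E3, adjusted p = 2.23e-14). The other genes that fell in both were the V1 subunits Atp6v1a (-0.47 in E4 and -0.57 in E3), Atp6v1b2 (-0.43 and -0.47 in the same order) and Atp6v1c1 (-0.41 and -0.33), and the V0 subunits Atp6v0a1 (-0.27 and -0.39) and Atp6v0c (-0.17 and -0.19). Atp6v0b was called higher in E4 (0.18 ± 0.05) and Atp6v0e in E3 cells (0.14 ± 0.05), and neither call held under a trimmed mean scaling. Mouse Apoe filled 46678 to 63640 of the 1000000 scaled TPM of WT untreated libraries. It read 138 to 236 in E4 untreated and 92.2 to 114 in E3 untreated libraries. By construction this difference lifts other coding genes in E4 and E3 cells.

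Border macrophage and monocyte marker sums were 348 to 517 scaled TPM in E4 untreated and 335 to 492 in E3 untreated libraries, against 722 to 1039.9 in WT untreated libraries, without overlap. Fibroblast and pericyte sums were 807 to 1160.1 in E4 untreated libraries, against 2135 to 2842 in WT untreated libraries, again without overlap, and 2049 to 2580.2 in E3 untreated libraries. Microglia sums were 13037 to 14881 in E4 untreated libraries, above the 10926 to 12159 of WT untreated libraries. In E3 untreated libraries they were 9269 to 11039, overlapping with WT. The part of these markers in the result was not tested. Untreated E4 and E3 libraries also had a lower coding share than untreated WT libraries, without overlap. With that share as a covariate, Atp6v0d2 was still lower in E4 (-1.53) and E3 cells (-1.67), and Atp6v0c in E3 cells (-0.18). Atp6v1a (0.12), Atp6v1c1 (0.11) and Atp6v0a1 (0.16) turned to the other sign in E4 cells without being called. Atp6v1h, which was not called without the covariate (-0.23), was called higher in E4 cells with it. With all 47 libraries and equal weights, Atp6v0d2 and Atp6v1a were called lower in each genotype and no subunit higher. Atp6v0a1 in E4 cells was not called without E4 untreated replicate 1, WT untreated replicate 4 or WT untreated replicate 5. Atp6v1c1 in E3 cells was not called without any one of 5 libraries (E3 untreated replicate 1, 2 or 4, WT untreated replicate 4 or 5), and Atp6v0e in E3 cells not without E3 untreated replicate 1.

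After myelin, in E4 cells 5 subunits were higher and 1 lower, where 29.5% of all tested genes were called higher and 21.5% lower. In E3 cells 3 were higher and 1 lower, where 20.7% were called higher and 11.6% lower, so the E3 counts lie near that background. Over all genes the E3 calls were 2216 genes higher and 1247 lower, against 1927 and 1899 with a trimmed mean scaling. Atp6v0d1 had 225, 239.5, 239.7, 228 and 234 scaled TPM in E4 myelin libraries, against 164, 181, 194, 189.8 and 157 in WT myelin libraries, without overlap (0.40 ± 0.06, adjusted p = 4.69e-07). Atp6v0e had 885, 843, 848, 826 and 829.9 in E4 myelin libraries, against 663, 746, 647, 659 and 645 in WT myelin libraries, again without overlap (0.33 ± 0.05, adjusted p = 3.64e-07). Atp6v1a (0.37), Atp6v1c1 (0.29) and Atp6v0b (0.19) were also higher in E4 cells, of which Atp6v1a and Atp6v1c1 had been lower untreated, and in E3 cells Atp6v0e (0.25), Atp6v0d1 (0.20) and Atp6v0b (0.19). Atp6v0d2 stayed lower than in WT cells, with a log2 fold change of -0.41 ± 0.13 in E4 (adjusted p = 0.0101) and -0.88 ± 0.14 in E3 cells (adjusted p = 4.52e-06). Atp6v0b in both genotypes and Atp6v0d1 in E3 cells were not called under a trimmed mean scaling. Mouse Apoe read 59262 to 82326 scaled TPM in WT myelin libraries, against 312 to 745 in E4 myelin and 104 to 260 in E3 myelin libraries. By construction this difference lifts other coding genes in E4 and E3 cells here too. Atp6v1c1 in E4 cells was called in 22 of 43 omissions of a library, Atp6v1a not without E4 myelin replicate 4 or WT myelin replicate 1 or 3, and Atp6v0d2 not without WT myelin replicate 4. In E3 cells Atp6v0d1 was not called without E3 myelin replicate 3 or WT myelin replicate 5. With the coding share as a covariate 8 subunits were called in E3 cells, Atp6v1a (0.52), Atp6v1c1 (0.47), Atp6v1b2 (0.30) and Atp6v1h (0.26) being added. Calls over all genes moved under the alternatives too, and this count is not set beside them. With all 47 libraries and equal weights, Atp6v0d1 alone was called in E4 cells and Atp6v0d2 alone in E3 cells. Astrocyte and fibroblast markers also differed between these genotypes. Fibroblast and pericyte sums were 812 to 1014 scaled TPM in E4 myelin and 1427 to 1855 in E3 myelin libraries, against 2302 to 3111 in WT myelin libraries. Microglia sums were 12861 to 14124 in E4 myelin libraries, above the 10191 to 12252 of WT myelin libraries. In E3 myelin libraries they were 9477 to 12840, overlapping with WT. Border macrophage and monocyte sums were 257 to 308 in E4 myelin and 348 to 377 in E3 myelin libraries, below the 492 to 692 of WT myelin libraries. The part of all these markers in the result was not tested.

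**Figure D3:**
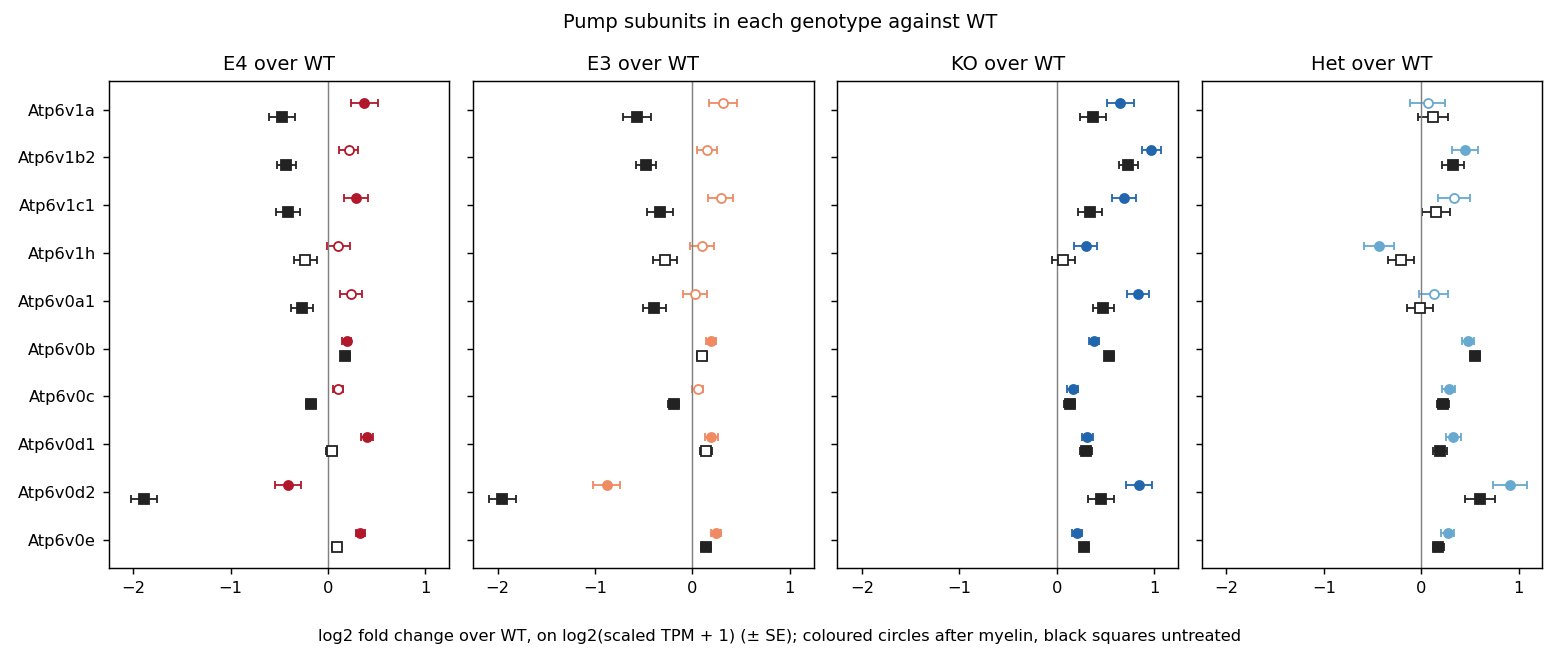
Log2 fold change of each subunit over WT (horizontal axis, ± SE) in E4, E3, KO and Het cells. Coloured circles are cells after myelin and black squares untreated cells, and filled symbols passed the test. In untreated E4 and E3 cells 6 subunits each lie below 0 and passed, and in KO cells 10 after myelin and 9 untreated lie above 0 and passed.

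KO cells had more of nearly every subunit than WT cells. All 10 were higher after myelin and 9 untreated, where 29.1% and 26.4% of all tested genes were called higher. The median log2 fold change of the 10 was 0.52 after myelin and 0.36 untreated, against 0.05 and -0.03 over all tested genes. Atp6v1b2 had 474, 467, 475, 453 and 494 scaled TPM in KO myelin libraries, against 213, 256, 192, 268 and 286 in WT myelin libraries (0.97 ± 0.10, adjusted p = 7.08e-11). In untreated cells it had 499, 422, 448, 486 and 420.0 in KO libraries, against 269.6, 265, 254, 284 and 290.1 in WT libraries (0.74 ± 0.10, adjusted p = 3.21e-08). Every KO library was above every WT library in both. Atp6v0a1 had 185, 192, 181, 147 and 201 in KO myelin libraries, against 98.8, 101, 84.4, 109 and 113 in WT myelin libraries (0.83 ± 0.11, adjusted p = 4.91e-08). Atp6v0b had 1402, 1342, 1297, 1327 and 1313 in KO untreated libraries, against 911, 953, 929.6, 874 and 921 in WT untreated libraries (0.54 ± 0.05, adjusted p = 1.81e-12). Neither pair overlapped. The others that rose in both states were Atp6v1a (0.65 after myelin and 0.37 untreated), Atp6v1c1 (0.69 and 0.34), Atp6v0d2 (0.85 and 0.46), Atp6v0d1 (0.31 and 0.30), Atp6v0e (0.21 and 0.28) and Atp6v0c (0.16 and 0.13).

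The smallest of these were the least firm. Atp6v0c lost both calls under a trimmed mean scaling, which left 9 subunits after myelin and 8 untreated. In untreated cells Atp6v0c was not called without any one of 4 libraries (KO untreated replicate 1 or 2, WT untreated replicate 1 or 5), Atp6v1a not without KO untreated replicate 1 or WT untreated replicate 2, and Atp6v1c1 not without WT untreated replicate 1. Atp6v1h, the gene called after myelin only (0.30 ± 0.12), lost its call without any one of 6 libraries (KO myelin replicate 1, 2 or 3, WT myelin replicate 1, 2 or 3). Apoe itself filled 46678 to 82326 of the 1000000 scaled TPM of WT libraries and under 100 in KO libraries, which by construction lifts other coding genes in KO cells. With all 47 libraries and equal weights, 6 subunits were called after myelin and 3 untreated. Fibroblast and pericyte marker sums were 134 to 447 in KO myelin and 147 to 861 in KO untreated libraries, against 2302 to 3111 in WT myelin and 2135 to 2842 in WT untreated libraries. Microglia marker sums were 15586 to 16689 in KO myelin and 13697 to 15567 in KO untreated libraries, against 10191 to 12252 in WT myelin and 10926 to 12159 in WT untreated libraries, without overlap in either state. Border macrophage and monocyte sums were 391 to 483 in KO myelin libraries, against 492 to 692 in WT myelin libraries. Untreated they were 415 to 546 in KO libraries, against 722 to 1039.9 in WT libraries, again without overlap. The part of these markers in the result was not tested.

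In Het cells 6 subunits were higher than in WT cells after myelin and 6 untreated, where 13.8% and 19.5% of all tested genes were called higher. They were the same genes in both, Atp6v0d2 (0.91 after myelin and 0.60 untreated), Atp6v0b (0.48 and 0.55), Atp6v1b2 (0.45 and 0.33), Atp6v0d1 (0.33 and 0.19), Atp6v0c (0.28 and 0.22) and Atp6v0e (0.27 and 0.17). Atp6v1h was lower after myelin (-0.43 ± 0.16, adjusted p = 0.0203), where 36.9% of all tested genes were. A trimmed mean scaling raised the median of all genes by 0.21 after myelin and 0.14 untreated on the log2 scale, and Atp6v1h was then not called (-0.20). It was also not called without Het myelin replicate 3 or WT myelin replicate 4 or 5. Over all genes the calls were 1480 genes higher and 3957 lower, against 2602 and 2809 with a trimmed mean scaling after myelin, and 2093 genes higher and 4176 lower, against 2787 and 3265 with a trimmed mean scaling in untreated cells. The subunit values rest on 2 Het myelin and 3 Het untreated libraries. Without Het myelin replicate 4 the count after myelin was 4. In untreated cells Atp6v0d1 was not called without Het untreated replicate 1, and Atp6v1b2 not without Het untreated replicate 2. With all 47 libraries and equal weights Atp6v0b (0.32) and Atp6v0d2 (0.89) were called after myelin, and of untreated cells Atp6v0b (0.33) higher and Atp6v0a1 (-0.46) and Atp6v1h (-0.90) lower. With the spread of the compared groups alone, Atp6v0b and Atp6v0d2 were the 2 subunits called after myelin. Fibroblast and pericyte marker sums were 75.6 to 238 scaled TPM in Het myelin and 139 to 346 in Het untreated libraries, against 2302 to 3111 in WT myelin and 2135 to 2842 in WT untreated libraries. Microglia marker sums were 13013 to 13488 in Het myelin libraries, against 10191 to 12252 in WT myelin libraries, without overlap, and 11884 to 14003 in Het untreated libraries, against 10926 to 12159 in WT untreated libraries. The part of these markers in the result was not tested.

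**Figure D4:**
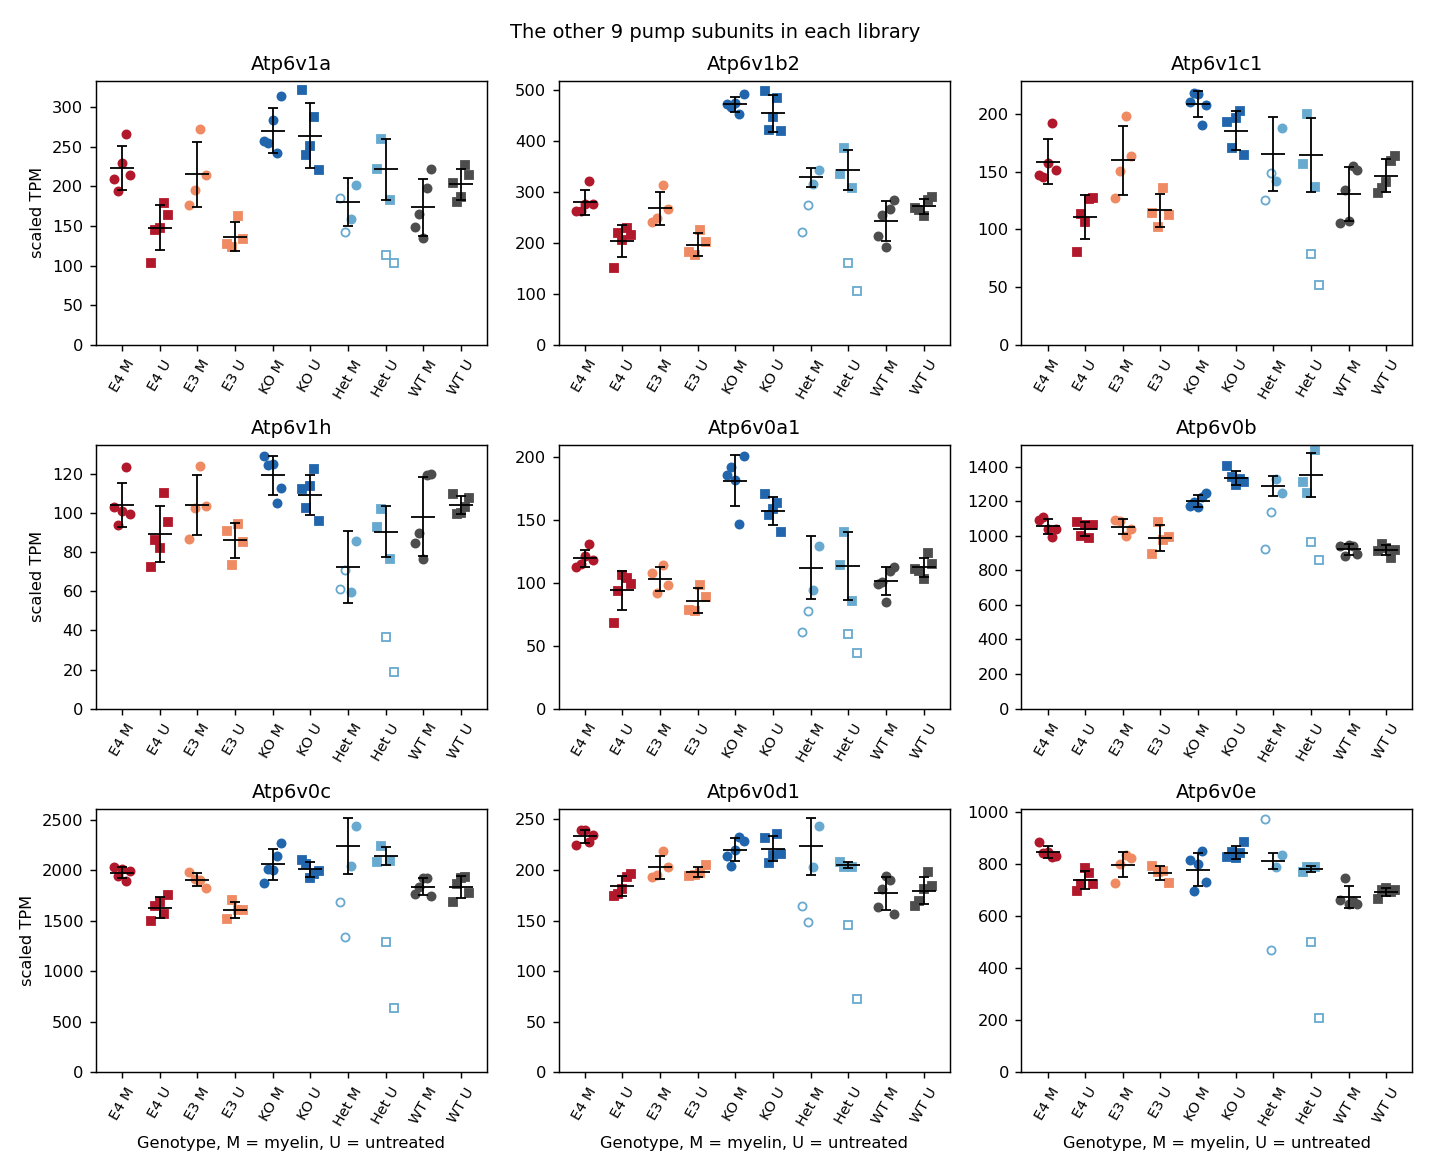
The other 9 subunits in scaled TPM (vertical axes) in each library, by genotype with myelin (M, circles) and untreated (U, squares). Open symbols are the 4 Het libraries left out of the tests, and black lines are the mean ± SD of the tested ones. Atp6v1b2 lies at 453 to 494 in KO myelin and 420.0 to 499 in KO untreated libraries, above every other group.

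The balance between the 2 forms of the d subunit followed Atp6v0d2. It made up 7.12% ± 0.556 (SD) of the summed Atp6v0d1 and Atp6v0d2 TPM in E4 myelin libraries, against 3.39% ± 0.41 in E4 untreated libraries. In E3 cells the share was 5.87% ± 0.594 with myelin, against 3.03% ± 0.5 untreated. It was 16.7% ± 1.44 in KO myelin and 14.4% ± 1.76 in KO untreated libraries, 17.2% ± 2.53 in Het myelin and 16.7% ± 2.33 in Het untreated libraries, and 12.1% ± 2.03 in WT myelin and 13% ± 1.08 in WT untreated libraries. Atp6v0d1 was thus the more abundant form in every group.

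Among themselves the 10 genes did not move as one. Over the 43 libraries the 36 pairs that leave out Atp6v0d2 had a median Pearson's r of 0.60 in log2 level, from -0.05 for Atp6v0b with Atp6v1h to 0.94 for Atp6v1a with Atp6v1c1. Within groups the median r of these pairs was 0.20, from -0.61 to 0.93. The 9 pairs with Atp6v0d2 had a median r of 0.72 over libraries, from 0.13 to 0.83, and of 0.63 within groups, from -0.23 to 0.73. The libraries share the 10 groups and the uneven coding share, so these are descriptions. The summed V1 subunits were 766 ± 81 scaled TPM (SD) in E4 myelin and 552 ± 90.1 in E4 untreated libraries, and 1071 ± 51.9 in KO myelin and 1014 ± 98.3 in KO untreated libraries, against 645 ± 116 in WT myelin and 726 ± 47.3 in WT untreated libraries. For the summed V0 subunits the values were 4247 ± 101 in E4 myelin, 3692 ± 137 in E4 untreated, 4483 ± 188 in KO myelin and 4604 ± 117 in KO untreated libraries, against 3733 ± 118 in WT myelin and 3764 ± 127 in WT untreated libraries.

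Of 16 other pump genes listed, 10 were measured above the filter. In E4 cells 3 of the 10 rose with myelin and none fell, beside 6.65% of all tested genes called higher. They were Atp6ap2 (0.52 ± 0.15, adjusted p = 0.0162), which encodes the accessory subunit also known as the prorenin receptor, Atp6ap1 (0.49 ± 0.12, adjusted p = 0.00489), the other accessory subunit, and Atp6v1g1 (0.33 ± 0.05, adjusted p = 5.00e-05), a peripheral stalk subunit. Atp6v1g1 averaged 495 ± 26.7 scaled TPM (SD) in E4 myelin and 394 ± 25.1 in E4 untreated libraries. In E3 cells, where 2.91% of all tested genes were called higher, 2 of the 10 rose, Atp6v1g1 (0.28 ± 0.06) and Tcirg1 (0.33 ± 0.10), the a subunit known from osteoclasts. None of the 10 was called with myelin in KO, Het or WT cells. In untreated cells against WT, 5 of the 10 were higher and 4 lower in E4 cells, and 3 higher and 2 lower in E3 cells. Of all tested genes 32.5% were higher and 31.2% lower in E4 cells, and 28.9% higher and 25.5% lower in E3 cells, so the E3 counts lie near that background. Against the direction of Atp6v0d2, the brain-rich Atp6v0e2 was higher by 2.74 in E4 and 2.42 in E3 cells, beside the higher astrocyte marker sums of these genotypes, whose part in it was not tested. Atp6v0e2 and Tcirg1 were picked out after their values were seen. In KO cells against WT 6 of the 10 were higher and 1 lower after myelin, and 5 were higher untreated, beside 29.1% of all tested genes called higher and 25.4% lower after myelin, and 26.4% higher untreated.

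Of the 11 genes listed for pump assembly and regulation, 8 were measured. With myelin 1 of the 8 was called in E4 and 1 in E3 cells, in both the gene Rogdi and in both lower (-0.27 ± 0.09 in E4 and -0.31 ± 0.10 in E3). Of all tested genes 6.1% were called lower in E4 and 2.59% in E3 cells, so 1 of 8 is no result about this list. Tmem199 (0.20 ± 0.07 in E4 cells, adjusted p = 0.0716) and Ccdc115 (0.16 ± 0.07, adjusted p = 0.113), assembly factors of the endoplasmic reticulum and Golgi, did not pass. Rogdi, like Lamtor1 and Tfeb in what follows, was named after its values were seen.

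Ion channels and exchangers of the endolysosome, which pass charge beside the pump, were measured for 11 of 11 listed. In E4 cells 3 rose with myelin and none fell, beside 6.65% of all tested genes called higher. They were the cation channel Mcoln1 (0.61 ± 0.18, adjusted p = 0.023), the chloride-proton exchanger Clcn7 (0.55 ± 0.13, adjusted p = 0.00399) and the channel Tpcn2 (0.28 ± 0.08, adjusted p = 0.0168). In E3 cells the same 3 rose, beside 2.91% of all tested genes, Mcoln1 by 0.71, Clcn7 by 0.53 and Tpcn2 by 0.37. Mcoln1 also rose in WT cells (0.67 ± 0.18, adjusted p = 0.0223), where no pump subunit was called.

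Of the MiT/TFE factors, folliculin partners and Ragulator and Rag genes that link the pump to nutrient sensing, 15 of 15 were measured and 5 rose with myelin in E4 cells, with none lower, beside 6.65% of all tested genes called higher. Fnip2 (0.85 ± 0.13, adjusted p = 1.28e-05) and Flcn (0.35 ± 0.10, adjusted p = 0.0146) encode the folliculin pair, Rragc (0.75 ± 0.22, adjusted p = 0.0189) a Rag GTPase, and Lamtor3 (0.42 ± 0.09, adjusted p = 0.00126) a Ragulator subunit. The fifth, named for completeness, was the Ragulator subunit Lamtor1 (0.18). In E3 cells, beside 2.91% of all tested genes, 2 of the 15 rose, Fnip2 (0.71) and Rragc (0.84), and in WT cells, beside 4.38% of all tested genes, 2 rose, Rragc (0.89) and Tfeb (0.41). None of the 4 factor genes themselves (Tfeb, Tfe3, Mitf and Tfec) was called with myelin in E4 cells.

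Genes linked to osteoclasts, the cell type best known for Atp6v0d2, were measured for 7 of 12 listed. Of the 7, 1 rose with myelin in E4 and 1 in E3 cells (beside 6.65% and 2.91% of all tested genes), in both Gpnmb (1.19 ± 0.11 in E4 and 0.78 ± 0.13 in E3), a glycoprotein of lysosome-rich macrophages. Gpnmb averaged 2864 ± 82.2 scaled TPM (SD) in E4 myelin and 1271 ± 203 in E4 untreated libraries. Nfatc1, the master factor of osteoclast formation, was not called (0.13 ± 0.11 in E4, adjusted p = 0.464). Against untreated WT cells 6 of the 7 were lower and 1 was higher in untreated E4 cells, and 6 were lower in untreated E3 cells, beside 31.2% of all tested genes called lower in E4 and 25.5% in E3 cells. The furthest in E4 cells was Ctsk, the collagen-degrading cathepsin of osteoclasts (-2.21 in E4 and -1.06 in E3), which was picked out after its values were seen.

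Over the 10 group means of log2 level, the 5 genes most like Atp6v0d2 were Plekha1 (Pearson's r = 0.977), Mtif2 (0.963), Lilr4b (0.962), Cd300a (0.948) and Gm14461 (0.946). Lilr4b averaged 434 ± 40 scaled TPM (SD) in E4 myelin, 359 ± 31.8 in E4 untreated, 535 ± 21.3 in KO myelin and 523 ± 44.5 in KO untreated libraries, against 446 ± 83.2 in WT myelin and 527 ± 37.7 in WT untreated libraries. The 5 genes most like the mean of the other 9 subunits were Mpp1 (0.989), Cd84 (0.985), Nmrk1 (0.975), Fnip2 (0.970) and Rcbtb1 (0.969). Both rankings were made over 10720 genes, and an r over 10 points is a description.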

How the data were processed

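Polyadenylated RNA was amplified with a low-input kit and sequenced, per the labels' protocols. The deposited values are TPM per gene for 47 libraries in a single table, which the authors made before deposit. The submitters' processing notes name Salmon 0.13.1, limma 3.40.6 and mm10 without giving the role of each. TPM keep no read depth, and with depth unknown no counting interval was computed.

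Columns were matched to samples by name. Each was rescaled so that protein-coding genes other than mitochondrial ones summed to 1000000, and log2(scaled TPM + 1) was taken, on which fold changes understate the change of low genes. A gene was tested if 4 or more of 43 libraries held 5 or more scaled TPM of it (10510 coding and 210 lincRNA genes), after 4 libraries with a coding share under 6% were left out. limma 3.58.1 (R 4.3.3, with data.table, version 1.17.8) was fitted without weights, with 1 mean per group and a trended prior, for 21 comparisons. P-values were adjusted by Benjamini-Hochberg over all 10720 genes at a threshold of 0.05. The fit was tested on simulated data with known changes.

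The subunits and gene lists were chosen with earlier results of these data known. Beyond the 10 subunits the text names, from each list, up to 4 genes with the largest changes past the threshold in the E4 myelin response, or the 2 of highest mean level where fewer than 2 passed, and the 5 genes most like Atp6v0d2 and the 5 most like the other 9 subunits over group means. The result of 1 microglia marker that was called is not reported here, so the members named do not give that list's direction. The Atp6v0e identifier of the table carries another version number than the annotation. Alternatives were a trimmed mean scaling, no filter, pseudocounts of 0.1 and 5, all 47 libraries with and without library weights, a spread from the compared groups alone, the replicate number as a block, the coding share as a covariate (chosen after seeing the data), and leaving out each of 43 libraries.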

Additional observations from a re-analysis of the deposited data

Results flagged for a closer look

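Among 80 combinations of a subunit and a group of 4 or more libraries, 5 held a library set apart from the others of its group by Dixon's criterion, where chance gives about 1 in 20. Atp6v0d2 had 53.3 scaled TPM in KO myelin replicate 5, the highest of its group, and 27.5 in KO untreated replicate 5, the lowest of its group. Atp6v0e had 746 in WT myelin replicate 2. E4 myelin replicate 4, the E4 library with the highest coding share at 24.3%, stood above the other E4 myelin libraries for both Atp6v1b2, at 321, and Atp6v1c1, at 192.

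The responses to myelin differed between genotypes by the test of the difference itself for 12 pairs of a subunit and a comparison. Of all tested genes 1.91% were called higher for E4 minus WT, 0.989% for E3 minus WT and 0.858% for the mean of E4 and E3 minus KO. Most of the 12 were not firm. With all 47 libraries and equal weights, Atp6v0d2 for E4 minus WT was the only one left. With the coding share as a covariate, Atp6v0d2 alone was called for E4 minus WT. The E4 response exceeded the WT response on the log2 scale by 1.49 for Atp6v0d2, 0.85 for Atp6v1a, 0.70 for Atp6v1c1, 0.64 for Atp6v1b2, 0.36 for Atp6v0d1, 0.28 for Atp6v0c and 0.24 for Atp6v0e. The E3 response exceeded the WT response by 1.07 for Atp6v0d2, 0.88 for Atp6v1a and 0.62 for Atp6v1b2. The mean response of E4 and E3 exceeded the KO response by 0.89 for Atp6v0d2 and 0.25 for Atp6v0e. No cause was tested.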

How the results depend on the processing

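Atp6v0d2 was called higher with myelin in E4 cells under each of the 9 alternatives and each of the 43 omissions of a library. Counts below are of the 10 subunits, and their causes were not tested. Subunit counts under an alternative, here and above, are not set beside the share of all genes called under it. Over all genes the calls moved too, as given below, so these counts alone are no result about the subunits. Under a trimmed mean scaling the comparison of E4 with E3 after myelin gave 1 and that of E3 with WT after myelin 2. Without the filter the response of E4 minus WT gave 4 and that of E3 minus WT 1. With library weights over 47 libraries the KO response gave 1, the Het response 1 and the mean E4 and E3 response minus KO 6. With 47 libraries and equal weights the E4 response gave 2, the E3 response 0, E4 against E3 after myelin 0, E4 against WT 1 after myelin and 2 untreated, E3 against WT 1 and 2, KO against WT 6 and 3, Het against WT 2 and 3, E4 minus WT 1, E3 minus WT 0 and the mean response minus KO 0. With the spread of the compared groups alone, E4 against E3 after myelin gave 1, E3 against WT after myelin 2, Het against WT after myelin 2, E4 minus WT 3 and the mean response minus KO 5. With the coding share as a covariate, the E4 response gave 5, E4 against E3 untreated 2, E4 against WT untreated 2, E3 against WT 8 after myelin and 4 untreated, E4 minus WT 1 and the mean response minus KO 6. Neither pseudocount ended a call.

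Of values past the threshold as reported or under the alternative, signs turned in 11 cases. Values past it in neither are not counted. With 47 libraries and equal weights, untreated Het cells against WT gave -0.34 for Atp6v0e, -0.27 for Atp6v0c, -0.22 for Atp6v1b2 and -0.20 for Atp6v0d1, and Het cells after myelin -0.0012 for Atp6v0c. With the covariate, untreated E4 cells against WT gave 0.16 for Atp6v0a1, 0.12 for Atp6v1a, 0.11 for Atp6v1c1 and 0.23 for Atp6v1h, untreated E3 cells 0.084 for Atp6v1c1, and untreated Het cells 0.24 for Atp6v0a1.

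Leaving out each library gave 7 to 8 subunits for the E4 response, 2 to 5 for E3, 0 to 2 for E4 against E3 after myelin, 4 to 8 after myelin and 6 to 8 untreated for E4 against WT, 3 to 6 and 6 to 9 for E3 against WT, 9 to 10 and 7 to 9 for KO against WT, and 4 to 7 and 5 to 6 for Het against WT. For the differences of responses it gave 4 to 8 for E4 minus WT, 1 to 4 for E3 minus WT and 1 to 5 for the mean response minus KO.

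Libraries with the same replicate number deviated together in 4 of 20 pairs of a myelin and an untreated library (r over 0.1, median 0.017), so the numbers were not taken to pair the samples. With the number as a block the count for E3 minus WT was 5. Over all genes the counts of calls moved further. They were 1367 for the E4 response, from 296 to 2702, 590 for the E3 response, from 11 to 1624, 212 for the KO response, from 12 to 517, 21 for the Het response, from 0 to 1524, 516 for the WT response, from 0 to 962, 1239 for E4 against E3 after myelin, from 469 to 2758, 1794 for E4 against E3 untreated, from 695 to 2818, 378 for E4 minus WT, from 7 to 963, 160 for E3 minus WT, from 0 to 938, 148 for KO minus WT, from 1 to 1003, 0 for Het minus WT, from 0 to 1278, 0 for E4 minus E3, from 0 to 66 and 196 for the mean response minus KO, from 2 to 724 over the 9 alternatives other than leaving out a library. Of the comparisons with WT, those that moved by over 1.5 times were 3463 for E3 after myelin, from 2081 to 4224, and 5437 for Het after myelin, from 3862 to 9326. Leaving out a library also moved counts by over 1.5 times, to a lowest count of 829 for the E4 response, 125 for the E3 response, 114 for the KO response, 0 for the Het response, 138 for the WT response, 792 for E4 against E3 after myelin, 3489 for Het against WT after myelin, 169 for E4 minus WT, 15 for E3 minus WT, 14 for KO minus WT and 101 for the mean response minus KO, and a highest of 293 for the Het response, 877 for the WT response, 669 for E4 minus WT, 613 for E3 minus WT, 595 for KO minus WT and 346 for Het minus WT. TPM keep no depth, so what depth limits was not assessed.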

Other observations

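Genes that build or regulate the pump also differed between KO and WT cells. After myelin 6 of the 8 measured assembly and regulation genes were higher in KO than in WT cells, and 3 of the 8 untreated, with none lower in either. The furthest were Oxr1 (1.47 ± 0.20 after myelin, adjusted p = 6.80e-08), a gene of the TLDc family whose proteins bind the pump, and Dmxl1 (1.11 ± 0.42, adjusted p = 0.0258), a rabconnectin that promotes its assembly, both picked out after their values were seen. Of the endolysosomal channels and exchangers 9 of 11 were higher in KO than in WT cells after myelin and 4 of 11 untreated, with none and 1 lower. Of the MiT/TFE and Ragulator genes 12 of 15 were higher after myelin and 7 of 15 untreated, with none and 1 lower. The background in KO against WT was 29.1% of all tested genes called higher after myelin and 26.4% untreated. Of the 10720 genes, 25.4% were called lower after myelin and 3185 genes untreated. The untreated counts of 3 of 8 and 4 of 11 lie near the background of genes called higher.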
